A study of Mus musculus with 2 samples.

Results

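The antioxidant and NRF2 target genes described here are 40 named genes that neutralise reactive oxygen, make or use glutathione, or control those functions. They were taken by name, and every probe set annotated to a listed gene was read. The platform annotation named 37 of the 40 alone on 1 or more probe sets, among 18193 genes named in that way. A further member, Prdx1, shared all 5 of its probe sets with a pseudogene, and Prdx5 and Prdx6 had no probe set in the annotation used here. All counts below are over the 37 genes.

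The cells were retinal pigment epithelium (RPE) of the mouse, a pigmented layer behind the photoreceptors, grown in primary culture. One group was untreated RPE and the other RPE stimulated with interferon gamma (IFNg) at 100 U/ml for 24 h. Both were kept for 14 days in medium with serum, were moved to serum-free medium overnight before RNA extraction, and were described as 95% cytokeratin positive. Each group was 1 culture on 1 array, so no test, p-value or replicate error exists, and "higher" and "lower" describe these 2 arrays. The labels do not give the mouse strain or age, nor say how many eyes were pooled.

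The reading of these values rests on a few facts of the arrays. A signal below 20.4, the median over both arrays, was set to that floor, and a ratio with an array at the floor is a bound. All 37 members were above the floor on both arrays, and 36 of them had both signals above 86.6, the pooled 75th percentile. The only spread available is that of log2 ratios among probe sets that name the same gene. It had an SD of 0.44 over 4422 genes and of 0.30 over the 2006 genes with bright probe sets (both signals above 86.6). Such probe sets read the same 2 arrays, so this SD does not measure error between arrays or between cultures. The stimulus was visible, since all 9 measured genes of an interferon response list were at least 2-fold higher, among them Irf1 with signals of 319.1 and 3391.1. Throughout, signals are given in the order untreated, then IFNg. Of 13 RPE markers, 9 were measured, 3 of them at least 2-fold lower (4.48% of all measured genes) and 6 of them below 0 (57.4% of those genes). The summed signal of the 9 was 3545 and 4089, with Krt18 the largest difference (1390.4 and 2445.9). Rlbp1 (73.2 and 35.1), Ttr (89.4 and 29.4) and Tyrp1 (53.1 and 21.7) were the 3 lower ones, Otx2 had 410.9 and 388.5, and Rpe65, Best1, Rgr and Dct were under it on both arrays. In such bulk RNA, fewer cells of a type and less RNA per cell cannot be told apart.

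NRF2, encoded by Nfe2l2, is a transcription factor that the adaptor KEAP1 holds in the cytoplasm and presents to a CUL3 ubiquitin ligase for degradation. Oxidants and electrophiles modify KEAP1, and NRF2 then enters the nucleus, pairs with a small MAF protein and binds antioxidant response elements of genes for glutathione synthesis, quinone reduction and the thioredoxin cycle. RPE depends on these systems because it takes up oxidised photoreceptor membranes in a light-exposed, oxygen-rich site. NRF2 activity is set largely at the protein level, so transcripts of its targets are the usual readout on arrays.

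Most antioxidant transcripts lay within 1.5-fold of their untreated levels in the IFNg culture, as did most genes on the arrays, and 22 of 37 members had an absolute log2 ratio under 0.5. By the chosen probe set of each gene, 0 of 37 members were at least 2-fold higher with IFNg, against 8.82% of the 12750 measured genes (those above the floor on at least 1 array). At least 2-fold lower was 1 of 37, the mitochondrial thioredoxin reductase gene Txnrd2, against 4.48% of all genes. The members are bright, and bright genes pass 2-fold less often: of 6341 genes with both signals above the pooled 75th percentile, 6.64% were 2-fold higher and 2.07% 2-fold lower, against 0 and 0 of the 36 members in that range. The log2 ratio of IFNg over untreated had a median of -0.28 over the members and -0.12 over all genes. It was below 0 in 24 members (64.9%), against 57.4% of all genes. Over bright genes alone the median was -0.17 with 62.0% below 0, and over the bright members -0.27 with 63.9%, so the share below 0 was also near the background. At 1.5-fold, 6 members were higher (17.9% of all genes) and 6 lower (18.7%). Among the bright members alone these counts were 6 and 5 of 36, against 14.6% and 16.1% of bright genes, so the members' share in each direction was near the background.

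**Figure D1:**
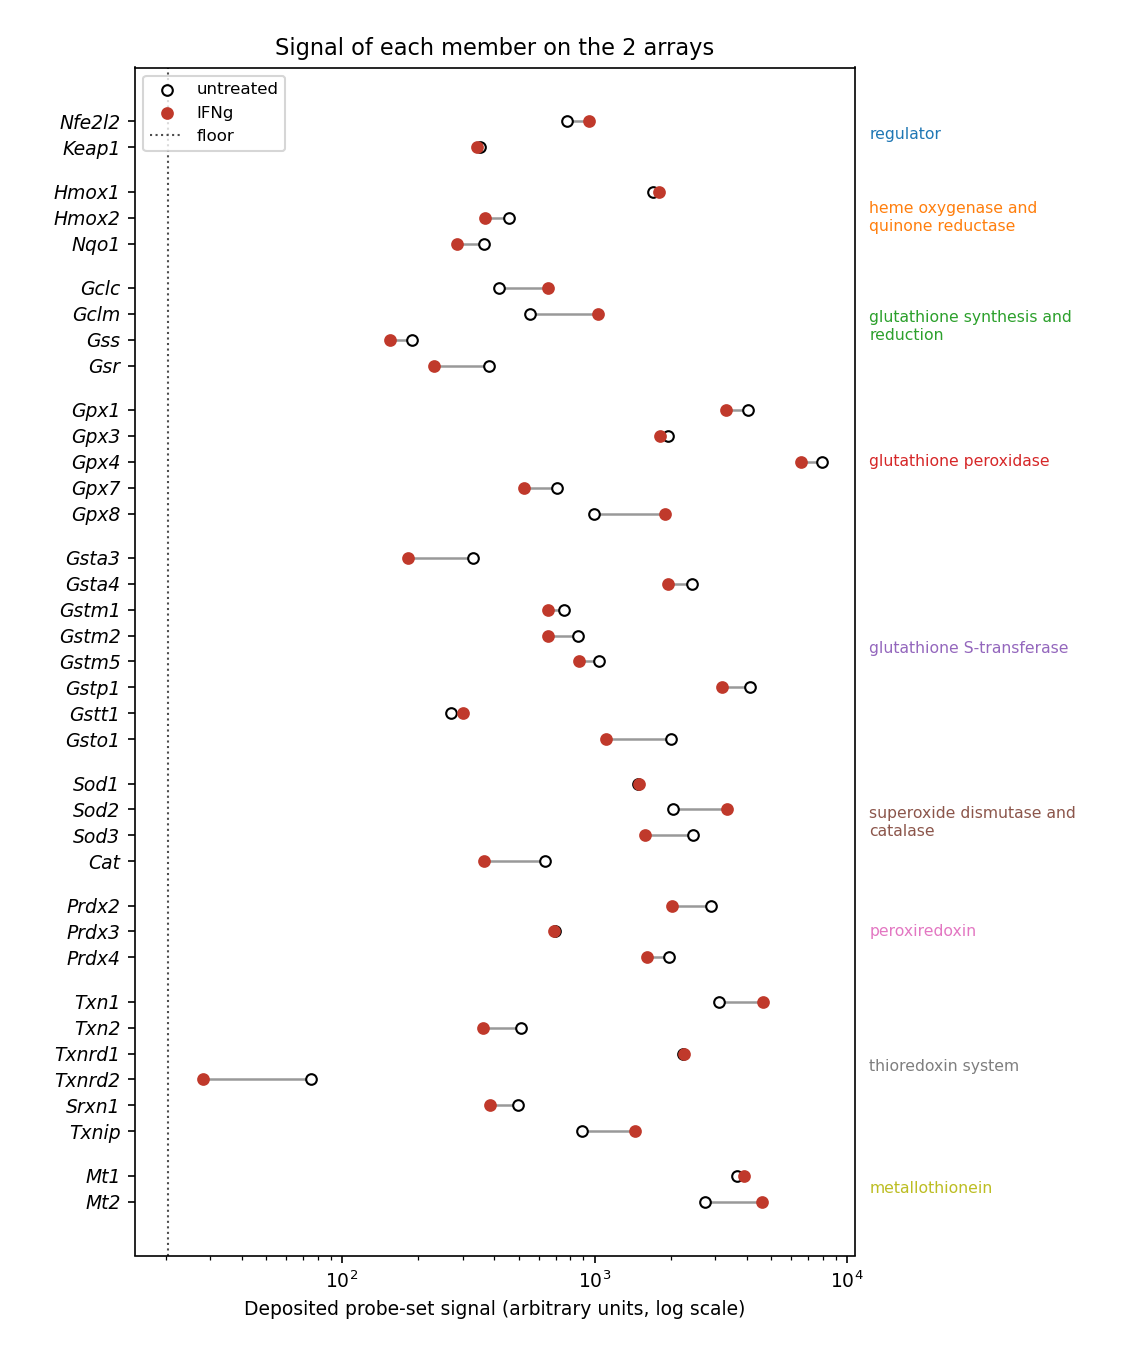
Deposited signal (arbitrary units, log axis) of the chosen probe set of each of the 37 members, grouped by role, with an open circle for untreated RPE, a red circle for RPE with IFNg and a dotted line at the floor of 20.4. Most pairs of circles lie close together, and only Txnrd2, at 75.6 and 28.1, lies near the floor.

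The 6 members at least 1.5-fold higher were Gpx8, Gclm, Mt2, Sod2, Txnip and Gclc, and the 6 at least 1.5-fold lower were Txnrd2, Gsto1, Gsta3, Cat, Gsr and Sod3. Each direction therefore held enzymes of glutathione metabolism and of superoxide or peroxide removal. Hmox1 and Nqo1, the 2 genes most often read as NRF2 targets, were in neither group.

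**Figure D2:**
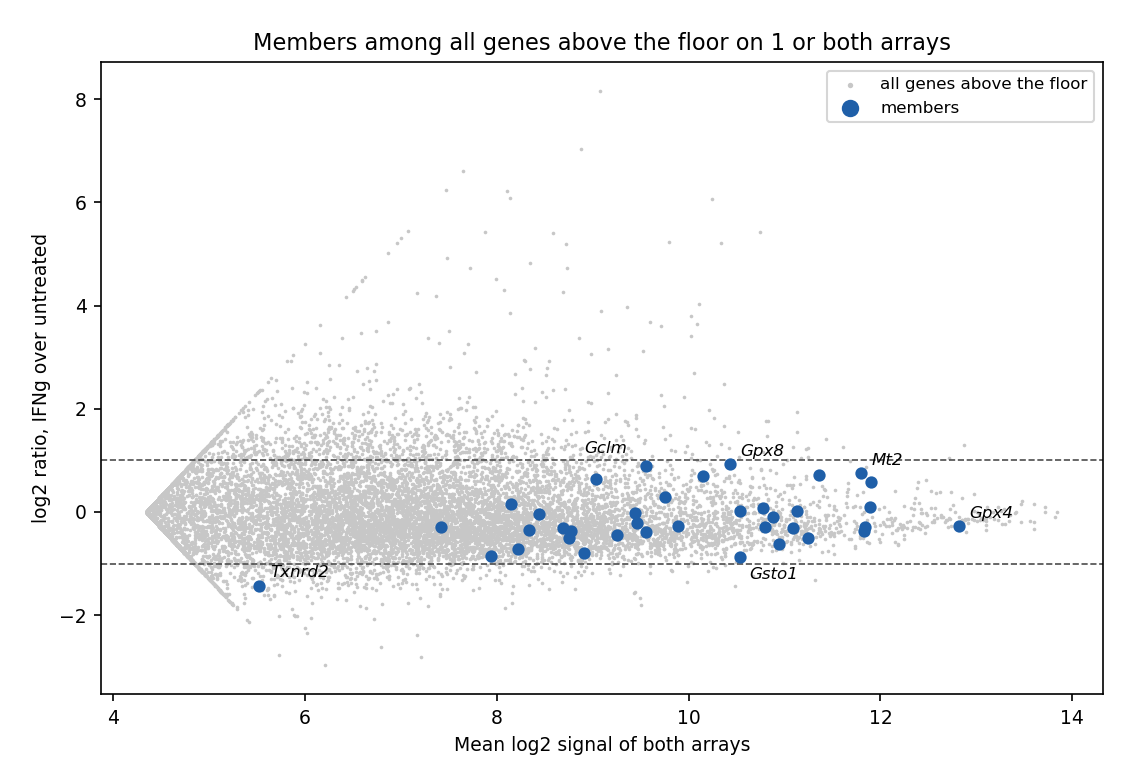
Log2 ratio of IFNg over untreated against the mean log2 signal of both arrays, with 1 grey point for each measured gene, blue points for the 37 members and dashed lines at 2-fold. The members lie to the right, among bright genes, and all except Txnrd2 fall between the dashed lines.

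Promoters are shown here for 5 members, chosen after their values were seen: the 4 with the highest ratios (Gpx8, Gclm, Mt2 and Sod2), each of which holds a motif searched, and Gsta3, which holds the same antioxidant response element core as Gclm but had a ratio below 0. Each line gives the 250 bases before the annotated start, 5′ to 3′ on the gene's own strand, from RefSeq's table of build GRCm38.p6. They lie at chr3:122245307-122245556 (plus strand), chr1:21240335-21240584 (plus), chr13:113046389-113046638 (minus), chr17:13007589-13007838 (plus) and chr8:94172368-94172617 (plus). Capitals mark the antioxidant response element core TGACNNNGC in Gclm and Gsta3 and the gamma-activated sequence TTCNNNGAA in Gpx8 and Sod2. In Mt2 they mark the antioxidant response element core and the metal response element cores TGCGCNC and TGCACNC, bound by the zinc sensor MTF1. Both strands were searched, so a match may read as the reverse complement.
Gclm: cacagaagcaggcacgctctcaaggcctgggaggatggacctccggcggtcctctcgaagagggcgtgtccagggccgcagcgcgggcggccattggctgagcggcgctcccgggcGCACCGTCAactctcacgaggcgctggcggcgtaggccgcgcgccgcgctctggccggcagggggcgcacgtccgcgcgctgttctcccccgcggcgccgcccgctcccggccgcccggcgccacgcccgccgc
Gsta3: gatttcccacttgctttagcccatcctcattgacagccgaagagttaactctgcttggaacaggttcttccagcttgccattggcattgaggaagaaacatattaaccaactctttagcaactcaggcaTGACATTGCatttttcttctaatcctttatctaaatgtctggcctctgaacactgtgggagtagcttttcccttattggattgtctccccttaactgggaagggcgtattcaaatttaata
Gpx8: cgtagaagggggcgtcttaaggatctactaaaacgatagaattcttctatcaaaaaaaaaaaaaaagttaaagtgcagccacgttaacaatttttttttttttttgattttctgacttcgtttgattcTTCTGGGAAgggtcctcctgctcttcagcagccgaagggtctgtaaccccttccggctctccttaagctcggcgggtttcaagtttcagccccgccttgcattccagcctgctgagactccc
Sod2: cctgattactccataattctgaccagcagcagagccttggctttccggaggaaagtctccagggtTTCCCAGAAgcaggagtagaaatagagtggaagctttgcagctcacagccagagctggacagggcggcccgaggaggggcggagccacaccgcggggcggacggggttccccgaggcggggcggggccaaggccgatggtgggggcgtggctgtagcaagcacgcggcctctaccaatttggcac
Mt2: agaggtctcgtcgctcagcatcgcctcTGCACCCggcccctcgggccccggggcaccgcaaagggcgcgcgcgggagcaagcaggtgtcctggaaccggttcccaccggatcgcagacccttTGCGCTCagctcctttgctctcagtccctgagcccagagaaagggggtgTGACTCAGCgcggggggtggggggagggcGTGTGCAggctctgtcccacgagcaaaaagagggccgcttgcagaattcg

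Over the members, 34 of 40 had promoters in the table, 42 promoters in all. Hmox1, Gclc, Gsr, Gsta4, Sod3 and Prdx6 had no entry there, so their promoters were not searched. The antioxidant response element core was in 8 of 34 (23.5%), against 11.5% of all 27025 genes in the table and 10.2% of its 32851 promoters. The members were named as NRF2 targets, so this excess is no independent finding. Of the 7 with a match and a value, Gclm (log2 ratio 0.90), Mt2 (0.75) and Nfe2l2 (0.29) were above 0, Sod1 (0.02) and Txnrd1 (0.01) lay at 0, and Gstm5 (-0.27) and Gsta3 (-0.86) were below it. By sign alone, 5 of these 7 were above 0, against 6 of the 25 members with a promoter and a value but no match. Over all measured genes, 5419 of 12750 were above 0. Sod1 and Txnrd1, counted among the 5, did not keep their sign under every processing alternative. Whether the core bears on the direction was not tested. The gamma-activated sequence was in 4 members (11.8%, against 8.13% of genes), which were Gpx8 (0.93), Sod2 (0.71), Txnrd1 (0.01) and Txn2 (-0.50). Of these 4, 3 were above 0, against 8 of the 28 without a match. The 3 include Txnrd1 at 0.01, whose dimmer probe sets were at -0.66 and -0.67. Whether this sequence bears on the direction was not tested either. The metal response core was found as TGCGCNC in 9 members (26.5%, against 14.0% of genes) and as TGCACNC in 3 (8.82%, against 11.8%), with Mt2 holding both. Above 0 were 4 of the 9, against 7 of the 23 without TGCGCNC, and 2 of the 3, against 9 of the 29 without TGCACNC. In Gclm a TGCGCNC match, not marked above, overlaps the antioxidant response element core. The interferon-stimulated response element core, GAAA and GAAA with any 2 bases between, was in 1 member, Gstt1 (2.94%, against 3.46%). These matches describe letters, not binding.

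The regulators themselves differed little between the arrays. Nfe2l2 had signals of 779.0 and 952.5 (1.22-fold higher), and its other probe set was under the floor on both arrays. Keap1, its inhibitor, had 351.9 and 343.1, and its second probe set had 174.1 and 162.5. Both ratios of Keap1 (-0.04 and -0.10) and that of Nfe2l2 (0.29) are smaller than the SD of 0.30 between bright probe sets of a gene.

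Heme oxygenase and quinone reductase transcripts were also near their untreated levels. Hmox1, the inducible enzyme that degrades heme to biliverdin, iron and carbon monoxide, had signals of 1704.7 and 1795.1, a log2 ratio of 0.07. Its constitutive counterpart Hmox2 had 460.0 and 369.5 (-0.32). Nqo1, which reduces quinones by transfer of an electron pair, had 365.0 and 284.9 (-0.36). Each of these genes has 1 probe set, so no other probe set stands beside the value.

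In glutathione synthesis the ligase that sets the rate and the reductase that recycles glutathione lay on opposite sides. Gclm, the modifier subunit of glutamate-cysteine ligase, had signals of 552.3 and 1030.2 (1.87-fold higher), and a dimmer probe set had 41.0 and 129.9 (log2 ratio 1.66). Its catalytic partner Gclc had 418.8 and 652.2 (1.56-fold higher) by the brighter probe set, but 348.3 and 362.1 (0.06) by the other, whose ID marks sequence shared between transcripts. Both probe sets of Gclm were thus higher, while those of Gclc gave different sizes. Gss, which adds glycine in the second step, had 189.7 and 154.1 (-0.30) and, by a further probe set, 112.9 and 118.9 (0.07). Gsr, the reductase that turns oxidised glutathione back with NADPH, had 383.1 and 231.9 (1.65-fold lower) and, by its other probe set, 385.0 and 204.0 (-0.92). The probe sets of Gsr lay on the same side and less than 0.30 apart.

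Glutathione peroxidases, which reduce peroxides with glutathione, had ratios below 0 in 4 of 5 genes, with Gpx8 above 0; over all genes 57.4% were below 0. Gpx8, a membrane protein of the endoplasmic reticulum, had signals of 995.7 and 1898.6, a 1.91-fold higher value (log2 ratio 0.93, percentile 90.0 among all genes). By the chosen probe sets this was the highest of the 37 members, but with probe sets averaged Gclm (1.28) was above it. Gpx8 has 1 probe set. Gpx7, its relative in the same compartment, had 709.9 and 523.9 (-0.44). Gpx4, which reduces lipid hydroperoxides inside membranes and guards against ferroptosis, had 7967.9 and 6573.6 (-0.28), with -0.45 at its other probe set. Cytosolic Gpx1 had 4047.5 and 3325.0 (-0.28), and secreted Gpx3 had 1959.8 and 1821.7 (-0.11).

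Glutathione S-transferases, which conjugate glutathione to electrophiles, were below 0 in 7 of 8 genes, against 57.4% of all genes and 62.0% of bright ones, with a median of -0.34, and none passed 2-fold. Gsto1, the omega-class enzyme, had signals of 2014.6 and 1107.6 (1.82-fold lower), and its other probe set had 1015.4 and 580.6 (-0.81). Its probe sets gave nearly the same ratio. Gsta3, an alpha-class enzyme, had 329.5 and 182.1 (1.81-fold lower), but a dimmer probe set had 65.3 and 68.8 (0.08). The remaining members had smaller values: Gstm2 (-0.40), the pi-class Gstp1 (-0.37), Gsta4 (-0.31), which clears the lipid peroxidation product 4-hydroxynonenal, Gstm5 (-0.27), Gstm1 (-0.21) and the theta-class Gstt1 (0.16). The 4 probe sets of Gstm1 ran from -0.81 to -0.21. Genes within the alpha and mu classes are near-identical in places, and it is uncertain which of them a probe set of these classes reads.

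Among the superoxide dismutases, which convert superoxide to hydrogen peroxide, the 3 genes took 3 different positions. Sod2, the manganese enzyme of mitochondria, had signals of 2050.3 and 3357.4 (1.64-fold higher). The next brightest probe set had 1998.8 and 3239.2 (0.70), and the 2 dimmer ones were at 0.93 and 1.16, so all 4 were higher with IFNg. Sod1, the copper-zinc enzyme of the cytosol, had 1478.5 and 1504.4 (0.02), with -0.01 at the next brightest probe set and 0.54 and -0.47, the latter a bound, at dim ones. Sod3, the secreted enzyme, had 2446.2 and 1582.2 (1.55-fold lower) and -0.37 at its other probe set. Catalase, Cat, which splits hydrogen peroxide in peroxisomes, had 635.8 and 364.4 (1.75-fold lower) by its brighter probe set but 376.2 and 438.2 (0.22) by the other, so its probe sets lay on opposite sides of 0.

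Peroxiredoxins, thiol peroxidases that thioredoxin recharges, were within 1.5-fold in all 3 measured genes, with 2 below 0 and Prdx3 at 0. Prdx2, a cytosolic form, had signals of 2877.6 and 2019.7 (-0.51, with -0.50 at its other probe set). Prdx4, the form of the endoplasmic reticulum, had 1963.0 and 1611.9 (-0.28), and its other measured probe sets were at 0.02 and -0.60. Mitochondrial Prdx3 had 698.1 and 691.3 (-0.01). The 5 probe sets that name both Prdx1 and the pseudogene Gm21399 had log2 ratios of 0.02 to 0.20, which are not given as values of Prdx1.

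**Figure D3:**
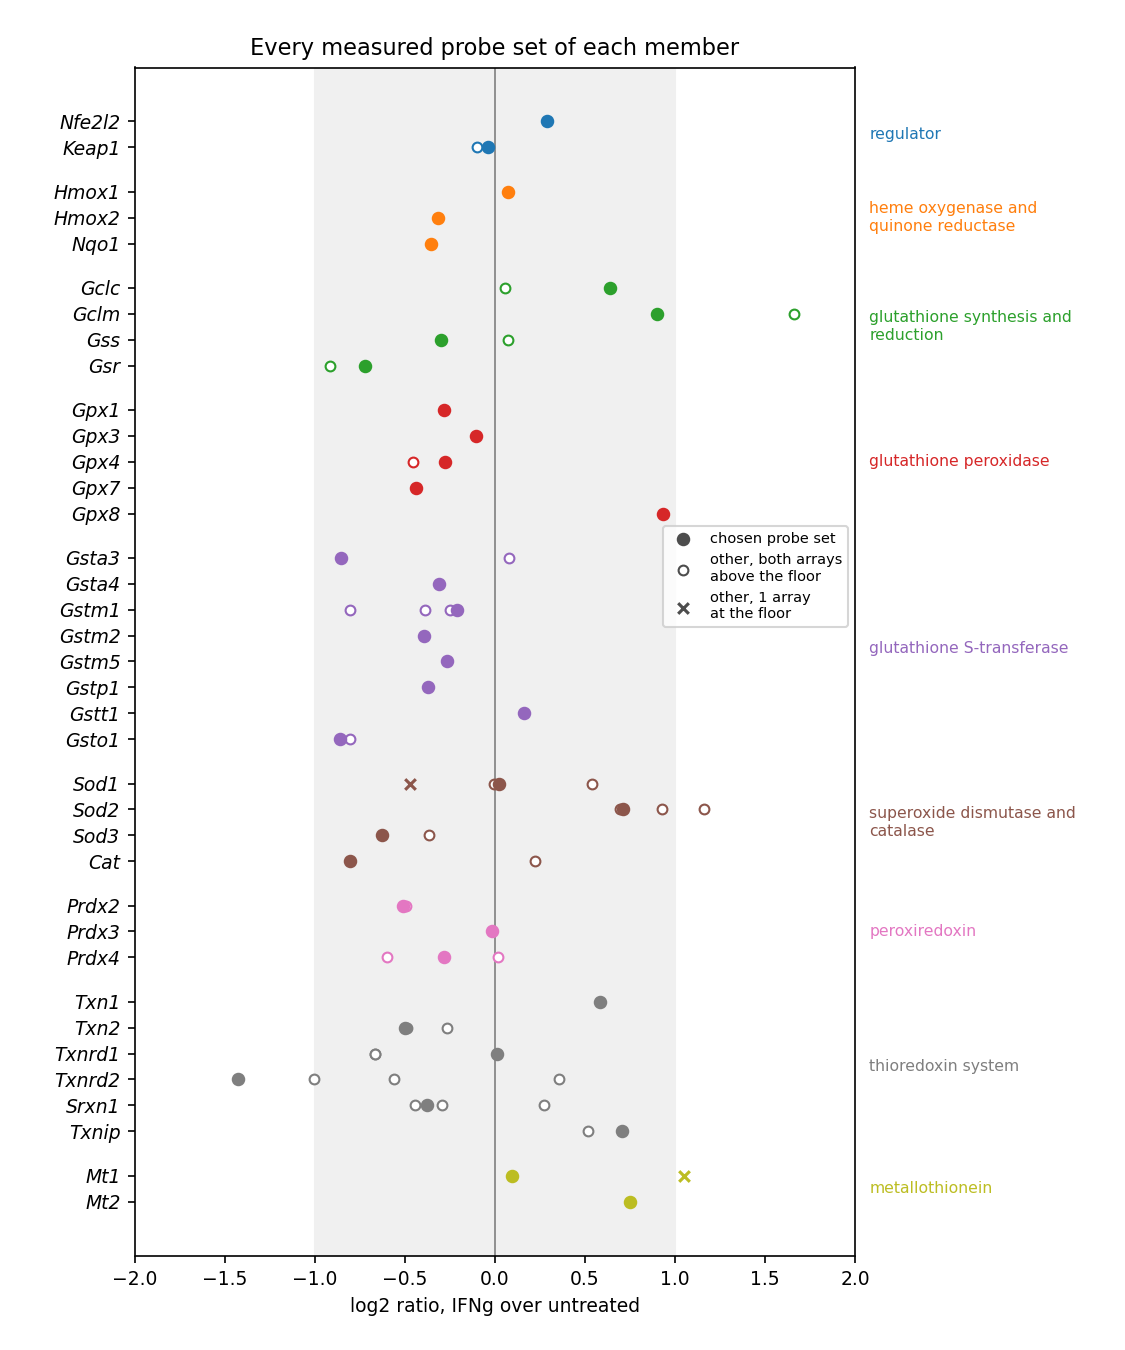
Log2 ratio of IFNg over untreated for every measured probe set of the 37 members, with a filled circle for the chosen probe set, an open circle for another with both arrays above the floor and a cross for a bound with 1 array at the floor; the grey band spans 2-fold. Sod2, Gclm and Txnip lie to the right at every probe set and Gsr, Gsto1, Sod3 and Prdx2 to the left, while Cat, Gsta3 and Txnrd2 have probe sets on both sides of 0.

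In the thioredoxin system, which keeps protein thiols reduced, cytosolic thioredoxin was higher and the mitochondrial genes were lower. Txn1, the cytosolic thioredoxin, had signals of 3114.4 and 4659.6 (log2 ratio 0.58), and its other probe set was under the floor. Txnip, which binds thioredoxin and inhibits it, had 891.2 and 1451.3 (1.63-fold higher) and 0.52 at its other probe set. Txnrd1, the cytosolic reductase, had 2231.1 and 2249.2 (0.01), but both of its dimmer probe sets were at -0.66 and -0.67. Srxn1, which repairs overoxidised peroxiredoxins and is a well-known NRF2 target, had 498.7 and 384.0 (-0.38), with -0.44, -0.29 and, for a dim probe set, 0.27 at the others. The mitochondrial thioredoxin Txn2 had 512.5 and 362.2 (-0.50), and its further probe sets were at -0.49 and -0.26.

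Txnrd2, the reductase of mitochondrial thioredoxin, was the only member past 2-fold by its chosen probe set. The signals were 75.6 and 28.1 (2.69-fold lower, log2 ratio -1.43, percentile 0.93 among all genes). They are dim, and the other probe sets did not give the same value: 1 was lower, at 43.3 and 21.6, 1 at 45.2 and 30.6 (-0.56), and 1 of nearly the same brightness was higher with IFNg, at 40.5 and 51.9 (0.36). Averaged over its 4 probe sets the gene was at -0.66, within 2-fold. Both signals were under the pooled 75th percentile of 86.6.

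Metallothioneins, small cysteine-rich proteins that bind zinc and copper and scavenge oxidants, were above 0 in both genes. Mt2 had signals of 2742.1 and 4610.0 (1.68-fold higher) from 1 probe set. Mt1 had 3658.7 and 3912.9 (0.10) by its bright probe set, whose ID marks shared sequence, and 16.4 and 42.3 by a dim one, a log2 ratio of at least 1.05. Its value thus depends on the probe set.

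Of the 75 probe sets that name a member alone, 71 were measured, 3 of them at least 2-fold higher and 2 at least 2-fold lower. The 3 were the dimmer probe sets of Gclm, Sod2 and Mt1 given above, and the 2 belonged to Txnrd2. More than 1 probe set was measured for 21 members, and 8 of these had ratios on both sides of 0. Only Cat, Sod1 and Txnrd2 spanned more than 1 log2 unit.

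By chosen probe sets, other targets of NRF2 had log2 ratios of -0.66 to 0.67, the upper end a bound, against -1.43 to 0.93 over the members. Of 24 other NRF2 targets, 21 were measured, 0 were 2-fold higher (8.82% of all genes) and 0 were 2-fold lower (4.48%). The median was -0.41, against -0.28 over the members, -0.12 over all genes and -0.17 over bright ones. Below 0 were 16 of the 21 (76.2%), against 57.4% of all genes and 62.0% of bright ones. Those with the lowest ratios were the transporter Abcc4 (256.4 and 162.3, -0.66), the pentose phosphate enzyme Taldo1 (1361.5 and 883.5, -0.62) and the carbonyl reductase Cbr1 (-0.57). Mgst1, a membrane-bound glutathione transferase, had 1910.2 and 2982.2 (0.64). Slc7a11, the cystine carrier that supplies glutathione synthesis, was dim at 19.8 and 32.4 (at least 1.59-fold higher). The autophagy adaptor Sqstm1 had 4199.3 and 2967.6 (-0.50) by its bright probe set, whereas a dim one had 13.0 and 88.7, at least 2.12 on the log2 scale.

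Among 11 measured partners and regulators of NRF2, 1 was 2-fold higher (8.82% of all genes) and 0 were 2-fold lower (4.48%). Cul3, the scaffold of the ligase that degrades NRF2, had signals of 138.5 and 309.3 (2.23-fold higher). A dim probe set was at least 1.05, and the other 3, also dim, were at 0.52, 0.26 and -0.40. Bach1, a repressor that competes with NRF2 for its sites, had 109.3 and 212.8 (0.96), and the next in size, Nfe2l3 (-0.52), was a bound. Park7 (-0.50) and Dpp3 (-0.44) had smaller values, as did the small MAF genes Mafg (-0.08), Mafk (0.09) and Maff (-0.42).

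A list of 28 other measured glutathione and thioredoxin enzymes had 1 gene 2-fold higher (8.82% of all genes) and 2 genes 2-fold lower (4.48%). The median was -0.36, against -0.12 over all genes. Ggct, which breaks down gamma-glutamyl peptides, had 57.0 and 244.9 (4.30-fold higher), while its other probe set, dim and under the floor with IFNg, had 31.3 and 8.2. The transferase Gsta2 had 378.1 and 179.8 (2.10-fold lower), and the methionine sulfoxide reductase Msrb2 had 99.4 and 45.7 (2.18-fold lower), each from 1 probe set. Gstz1 (-0.99), Hagh (-0.95), Sesn2 (-0.93) and the glutaredoxin gene Glrx (0.87) came close to 2-fold by their chosen probe sets, as did Glrx3 (at least 0.92), which is dim. Further probe sets gave -0.54 and 0.37 for Hagh, -0.44 for Sesn2 and 0.73 for Glrx. Of the 28 enzymes 19 were below 0 (67.9%), against 57.4% of all genes. At 1.5-fold, 10 of the 28 were lower (18.7% of all genes) and 3 higher (17.9%).

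Metal-handling genes had a median of 0.46 over 9 genes, of which 1 was 2-fold higher (8.82% of all genes). Cp, which encodes the ferroxidase ceruloplasmin, had signals of 257.5 and 1271.1 (4.94-fold higher), and its other 6 probe sets were at 0.16 to 1.56, with the probe set at 1.56 a bound. Slc30a1, a zinc exporter regulated by MTF1, had 78.7 and 149.9 (0.93), but -0.45 at a dimmer probe set. The iron exporter Slc40a1 (0.80) and the zinc importer Slc39a8 (0.63), both dim, and the neuronal metallothionein Mt3 (-0.59) followed in size, and Mtf1 had 66.0 and 59.3 (-0.15). No gene of this list was 2-fold lower by its chosen probe set, against 4.48% of all genes. However, the zinc and iron carrier Slc39a14 (-0.45) had dimmer probe sets at 135.4 and 69.8 (-0.96) and at 53.4 and 13.8. The last of these was at least 2-fold lower.

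Of 9 measured genes that produce oxidants or nitric oxide, 3 were at least 2-fold higher (8.82% of all genes) and 0 were counted as 2-fold lower (4.48%). Xdh, xanthine dehydrogenase, which can release superoxide and hydrogen peroxide, had signals of 160.9 and 704.0 (4.37-fold higher). Nos2, inducible nitric oxide synthase, had 2.3 and 54.1 (at least 2.65-fold higher). Cybb, the phagocyte oxidase subunit, had 24.9 and 58.0 (2.33-fold higher) but 35.0 and 14.7 at another probe set. Nox4 (0.82), dim at 21.7 and 38.4, and Cyba (-0.46), the partner subunit of both oxidases, lay within 2-fold. The dim genes Duox1 (40.6 and 19.0) and Ncf4 (38.9 and 7.2) were under the floor with IFNg, at least 1.99-fold and 1.91-fold lower.

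**Figure D4:**
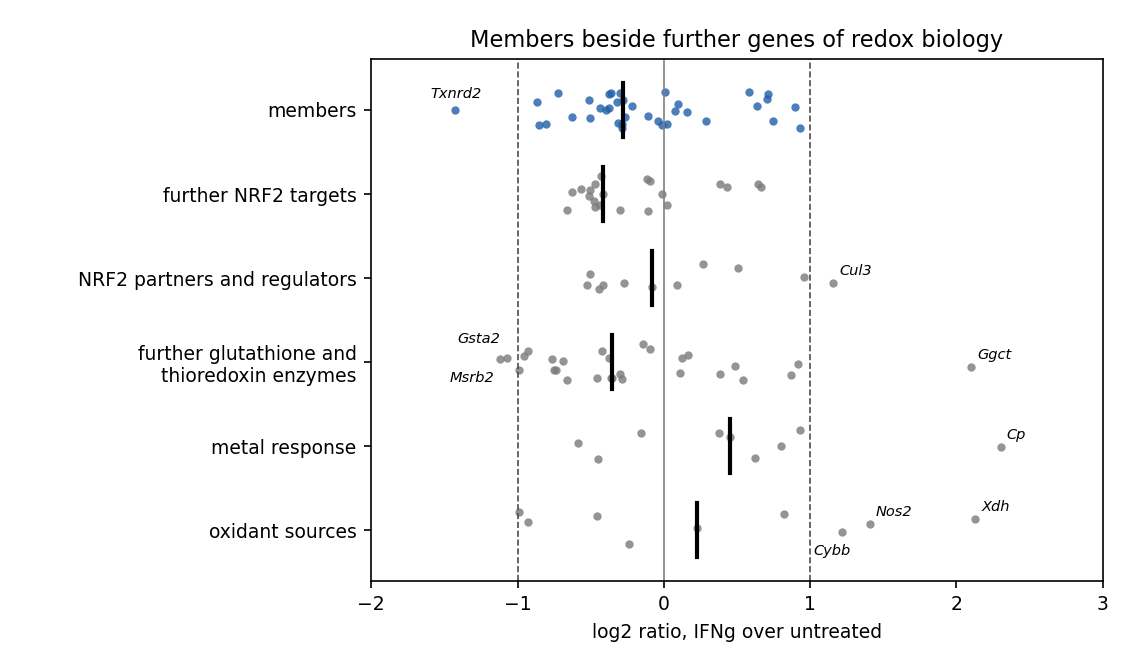
Log2 ratio of IFNg over untreated for the members (blue) and 5 further lists of redox genes (grey), 1 point for each measured gene with points spread vertically for legibility, a black bar at each list's median and dashed lines at 2-fold. The members and the further NRF2 targets sit mostly below 0, while Ggct, Cp and Xdh lie beyond 2 on the log2 scale.

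Markers of other cell types were measured beside these genes. Of 8 measured macrophage markers, 7 were below 0, and their summed signal was 1187 untreated and 772.1 with IFNg. Lyz2 (660.8 and 486.5) was the brightest of them, followed by Csf1r (202.8 and 77.5) and Cd68 (139.6 and 87.6). At least 2-fold lower were 2 of the 8 (4.48% of all genes), Csf1r and, by a bound, Fcer1g (46.0 and 10.6). Further probe sets of Csf1r were at -0.56 and -0.28. The leukocyte gene Ptprc had 20.8 and 7.0, and Itgam and Aif1 were under the floor on both arrays. By their chosen probe sets, all 5 measured endothelial markers were below 0 (summed signal 531.9 and 390.5, mostly from Emcn at 406.0 and 307.7). So were all 3 measured melanocyte and Schwann markers (125.1 and 77.9) and both measured markers of Muller glia and neural retina (1078 and 588.3). Gfap, Gnat1, Rcvrn and Crx were under the floor on both arrays. Over all genes 57.4% were below 0. Apart from Emcn and Glul, the measured markers of these 3 lists were dim. Other probe sets, under the floor untreated, reached at least 0.78 for Cdh5, 0.65 for Sox10 and 0.43 for Slc1a3. All 8 fibroblast markers were above the floor on both arrays, 3 of them above 0 and 5 below, and summed to 56361 and 51951. Several were among the brightest genes, such as Acta2 (13960.3 and 11075.8). Dcn (4570.4 and 7056.3) and Lum (331.8 and 564.0) were at least 1.5-fold higher, and Thy1 (437.9 and 280.6) at least 1.5-fold lower. The part of these cells in the ratios of the members was not tested. Housekeeping genes other than B2m, which interferon regulates, lay between -0.18 and 0.13 by their chosen probe sets. Dimmer probe sets ran wider, to 0.86 for Pgk1, 0.60 for Actb, and 0.80 and -0.47 for Ywhaz.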

How the data were processed

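Total RNA from 1 culture per group was amplified, biotin-labelled and hybridised to 1 array each, per the labels' protocols. The deposited values are linear signal intensity for 45101 probe sets, from 0.1 to 14896, and the authors' values have a 2% trimmed mean of 100.0 on each array. The sources used here do not give the software that summarised probes or corrected background.

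After removal of 64 control probe sets, arrays were brought to the same trimmed mean (factor 1.00008 for untreated, 0.999924 for IFNg), floored at the pooled median and put on a log2 scale. Genes were named from the platform annotation, which can be old: 34945 probe sets name 1 gene, 932 several and 9160 none. Each gene took its brightest probe set, by mean log2 signal. All 37 member symbols were found by Entrez identifier in the GRCm38.p6 gene table, and 0 changed. Counts are at 2-fold; no test was possible, and precision is limited by having 1 array per group.

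The members and lists were chosen with earlier results of these data known. Values were given for members past 2-fold, for members with discordant probe sets and for the ends of each role, and in each further list for genes past 2-fold and up to 4 others with large ratios. Other named genes were chosen after their values were seen. The alternatives were 4 scalings, 3 treatments of low signals, 2 probe-set rules and 2 thresholds. The procedure was tested on simulated data. The work used Python 3.11.15 (pandas 2.3.3, numpy 2.4.6, statsmodels 0.14.6, scipy 1.17.1), and matplotlib 3.10.9 drew the plots. The background over bright genes was added after the data were seen.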

Additional observations from a re-analysis of the deposited data

How the results depend on the processing

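No paired analysis was possible because each group holds 1 sample. The count of members at least 2-fold higher, 0, became 2 (Gclm and Gpx8) with a loess curve subtracted, 1 (Gclm) with all probe sets of a gene averaged, 1 (Mt1, by a bound) without probe sets whose IDs mark shared sequence, and 6 at 1.5-fold. The count of members at least 2-fold lower, 1, became 0 with the floor raised to the pooled 75th percentile, 0 with probe sets averaged, 0 at 3-fold and 6 at 1.5-fold. The members' median log2 ratio, -0.28, ran from -0.36 (a common 75th percentile) to -0.14 (loess) and stayed below that of all genes under each of 9 alternatives. Of the further NRF2 targets, none 2-fold higher became 1 (Sqstm1, by a bound) without probe sets of shared sequence, and at 1.5-fold 2 were higher and 2 lower. Over all genes, 1124 higher and 571 lower became 2258 and 2059 with a floor at the 25th percentile, 574 and 163 at the 75th, 591 and 357 with probe sets averaged, 2287 and 2381 at 1.5-fold, and 336 and 59 at 3-fold. Of 37 members, 31 kept the sign of their ratio under each alternative that gave them one (at most 9, fewer for members with no probe set left); Gpx3, Hmox1, Keap1, Prdx3, Sod1 and Txnrd1 did not. With probe sets averaged, ratios moved by more than 0.44, the SD between probe sets over all genes, for Gsta3 (-0.39), Cat (-0.29), Txnrd1 (-0.44), Txnrd2 (-0.66) and Mt1 (0.57). The cause of these changes was not tested beyond the construction of each alternative.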

Other observations

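Some members were sorted by the compartment in which their products are known to act, a grouping chosen after the values were seen. By the chosen probe sets, those in 3 of 4 compartments lay on both sides of 0. Other probe sets of Txnrd1, Txnrd2, Prdx4 and Srxn1 differed, as given above. In mitochondria, Sod2 had a log2 ratio of 0.71, Prdx3 of -0.01, Txn2 of -0.50 and Txnrd2 of -1.43. In the endoplasmic reticulum, Gpx8 had 0.93, Prdx4 -0.28 and Gpx7 -0.44. The secreted enzymes Gpx3 and Sod3 were both below 0, at -0.11 and -0.63, but Gpx3 did not keep its sign under every alternative. Among cytosolic thiol enzymes, Txn1 had 0.58, Txnrd1 0.01, Srxn1 -0.38 and Prdx2 -0.51.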
